A study of Mus musculus with 7 samples.

Results

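The genes described here had no count in any library of mouse precision-cut liver slices (PCLS) cultured with valproic acid sodium salt (VPA), although all control slices gave counts for them. They were chosen on CPM, the count of a gene per 1000000 counts on all genes of its library. A protein-coding gene was a member if it had at least 1 count in each of the 3 CTR libraries, a mean of at least 5 CPM over them, and 0 counts in all 4 VPA libraries. Tbcb, Chaf1a, Cenpv, Col15a1 and Smoc2 were left out by name. Of the 9098 protein-coding genes that met the criteria in the CTR libraries, 71 were members (0.78%), out of 55487 genes in the table. Because the VPA counts chose the members, their fall to 0 is a description, and no test of it is given. The slices, 250 µm thick and 3 mm wide, came from livers of healthy adult male BALB/c mice. CTR slices were kept in medium without VPA and VPA slices in the same medium with 2.5 mM VPA, and RNA was taken on day 3 of culture for both. No group of fresh liver is part of the comparison, so all 7 libraries carry the effects of slicing and culture. The study counts a separate liver as 1 biological repeat. The titles give slice culture numbers, 3 of which appear in both groups, but what such a number marks is not stated. The question behind the comparison was what VPA, added to hold back the activation of hepatic stellate cells (HSCs), does to gene expression in the slices.

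VPA inhibits class I histone deacetylases, enzymes that remove acetyl groups from histones and other proteins. Such inhibitors are known to raise some genes and lower others, and to hold dividing cells before DNA replication or mitosis. The liver slice contains hepatocytes, sinusoidal endothelium, macrophages, cholangiocytes and HSCs together. In such bulk RNA, fewer cells of a type and less RNA per cell cannot be told apart.

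The libraries were made from the 3′ end of polyadenylated RNA, so that counts do not grow with transcript length. They held 1743675 to 4773750 counts on genes in the CTR group and 1400887 to 3102450 in the VPA group. CTR libraries detected 17744 to 19756 genes, VPA libraries 14359 to 16761. A total of 0 counts over the 4 VPA libraries allows up to 3 counts, or 0.402 CPM, and this limit covers counting error only. Among the genes that met the CTR criteria, 22.4% were at 0 in at least 1 VPA library, 1189 of them in 1 library, 563 in 2 libraries and 214 in 3 libraries. The share at 0 in all 4 VPA libraries was 3.28% of genes with 5 to 10 CPM in CTR, 1.07% of those with 10 to 20 CPM, 0.45% of those with 20 to 40 CPM and 0.0553% of those with 40 to 80 CPM. No gene of 80 CPM or more was among them, the genes left out by name not being counted. The members were therefore the end of a graded series that was richest at low CTR levels.

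**Figure D1:**
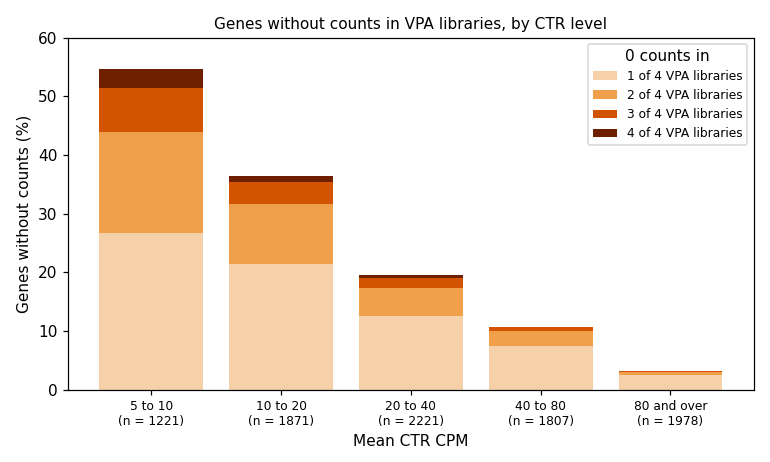
Percent of protein-coding genes at 0 counts in 1, 2, 3 or 4 of the 4 VPA libraries (stacked colours) in 5 ranges of mean CTR CPM, with the number of genes under each bar. The darkest part, genes at 0 in all 4, falls from 3.28% in the lowest range to 0 in the highest. Genes left out by name are not counted.

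Zeros at otherwise well counted genes were also found within the CTR group. For each library, genes other than the members were taken that had counts in every other library of its group, with at least 20 counts predicted. Of these, 1.77%, 2.06% and 2.65% were at 0 in CTR replicates 1 to 3. The shares were 6.32%, 3.22%, 2.68% and 2.19% in VPA replicates 1 to 4 (two-sided exact permutation test on the difference of means, p = 0.2). A gene at 0 in more than 1 library of its group could not enter. More other libraries had to hold counts for VPA than for CTR, so this p does not compare the groups on an equal footing. Counts of 1 to 3 were rarer than 0 at these genes, with 0.118% to 0.182% of them in the CTR libraries and 0.221% to 0.484% in the VPA libraries. Usp50, at 193 CPM in the other CTR libraries, was at 0 in CTR replicate 1, and Hamp, which encodes the iron hormone hepcidin, was at 0 in VPA replicate 4 against 307 CPM in the other VPA libraries. Both were chosen after their values were seen. Ass1, a urea cycle enzyme of hepatocytes, and the macrophage marker Adgre1 were at 0 in all 7 libraries, and were likewise chosen after their values were seen. VPA replicate 1 had 13.5% of the other genes that met the CTR criteria at 0, against 5.78% to 7.21% in the other VPA libraries. The part of such zeros in the choice of the members was not tested.

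**Figure D2:**
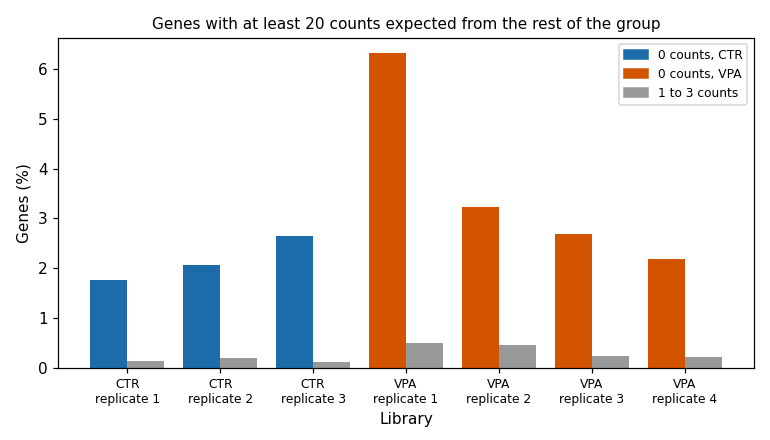
Percent of genes at 0 counts (blue, CTR; orange, VPA) and at 1 to 3 counts (grey) in each library, among genes with at least 20 counts predicted from the other libraries of the group. The genes had counts in every other library of the group. Every library has more genes at 0 than at 1 to 3 counts, and VPA replicate 1 is highest at 6.32%.

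The same rule with the groups exchanged found 1 of 7289 genes (0.0137%), Cbarp, a regulator of calcium channels, with 0 counts in the CTR libraries and 147, 72, 4 and 89 counts in VPA replicates 1 to 4. The exchanged rule asks for 0 counts in 3 rather than 4 libraries, and all 3 CTR libraries were deeper than 3 of the VPA libraries, so the numbers are not on an equal footing.

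The mean CTR level of the members ran from 5.10 to 79.3 CPM, with a median of 9.16. Of the 71 genes, 40 lay between 5 and 10 CPM, 20 between 10 and 20, and 11 at 20 CPM or above. At their CTR level, 38.1 to 592 counts would have fallen on a member over the 4 VPA libraries together, with a median of 68.4. Against the limit for 0 counts, the members were at least 12.7-fold to at least 197-fold lower with VPA (median at least 22.8-fold). The coefficient of variation between the CTR libraries had a median of 37.3% in members and 35.8% in other genes at 5 to 10 CPM, 31.5% and 28.8% at 10 to 20 CPM, and 37.0% and 20.99% at 20 to 80 CPM, where 11 members lay. The highest and lowest CTR library differed by more than 2-fold for 36 members and by more than 3-fold for 17. All members together summed to 855, 825 and 1053 CPM in CTR replicates 1 to 3. Just inside the threshold lay Medag, Ripply3 and Gnai1 at 5.11, 5.10 and 5.10 CPM, and just outside lay Tsacc, Kif26a and Epsti1 at 4.98, 4.96 and 4.94 CPM.

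**Figure D3:**
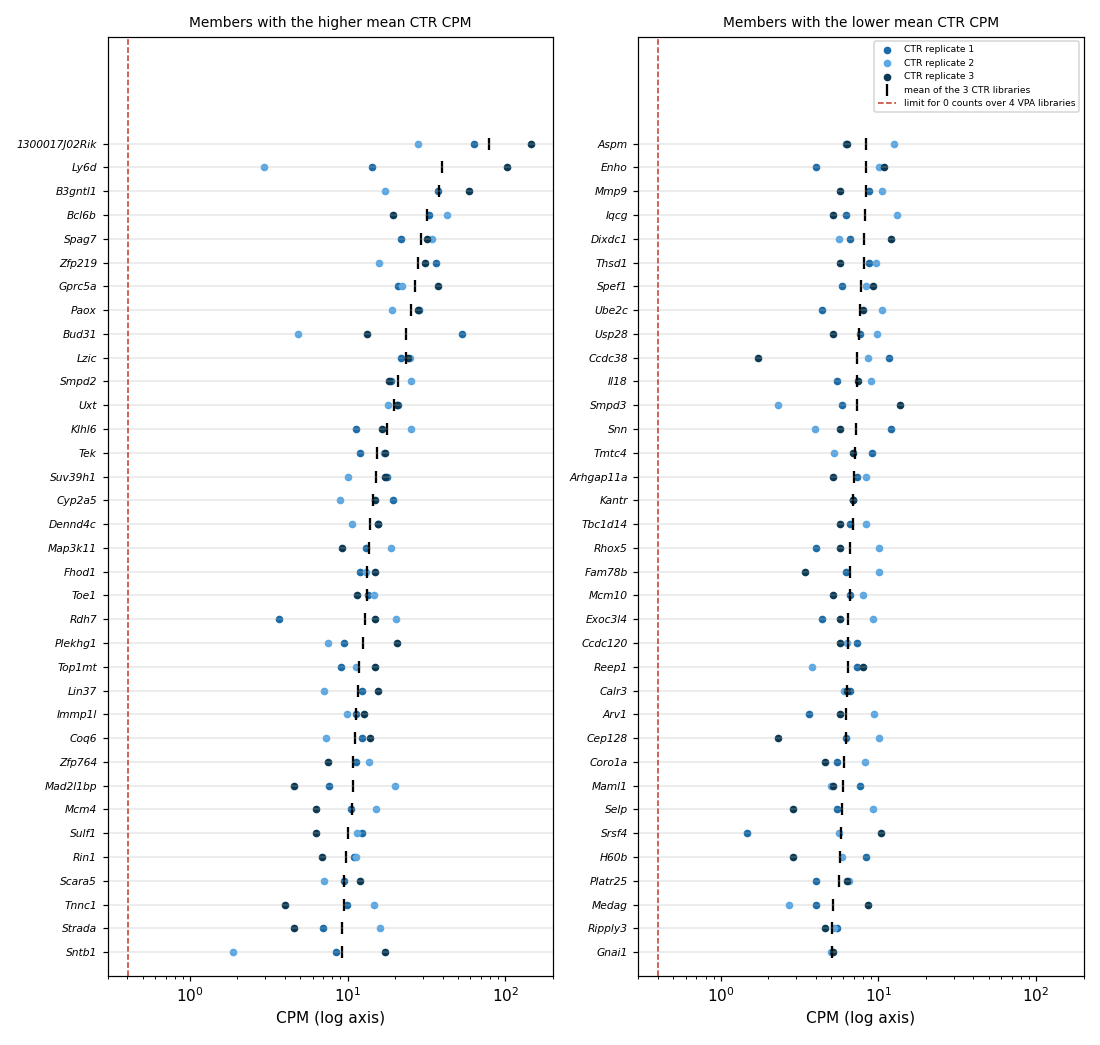
CPM of the members, apart from 1 that is not reported, in the 3 CTR libraries (points, log axis) with their mean (black bar), ranked by mean from the left panel to the right. The dashed line at 0.402 CPM is the limit that 0 counts over the 4 VPA libraries allow, and every CTR point lies above it.

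The member with the highest CTR level was 1300017J02Rik (ENSMUSG00000033688, GRCm38 chr9:103250521-103305082, minus strand), a transferrin-like inhibitor of carbonic anhydrase. It had 63.5, 28.1 and 146 CPM in CTR replicates 1 to 3 and, as for all members, 0 counts in each VPA library, at least 197-fold lower. Ly6d, a surface protein of epithelia and early B cells, had 14.2, 2.93 and 103 CPM. Both genes were highest in CTR replicate 3, and for Ly6d that library carried most of the mean. B3gntl1, a glycosyltransferase-like protein, had 37.6, 17.4 and 58.5 CPM. Bcl6b, a zinc finger repressor enriched in endothelium, had 32.8, 42.9 and 19.5 CPM. Spag7, which has a predicted nucleic acid binding domain, had 21.9, 34.2 and 32.1 CPM. For these genes every CTR library lay well above the limit for 0 counts, with no library at 1 to 3 counts. Zfp219, a zinc finger transcription factor, had 36.5, 15.9 and 30.97 CPM. Gprc5a, an orphan receptor of epithelia that retinoic acid induces, had 20.8, 22.2 and 37.3 CPM. Paox, the peroxisomal polyamine oxidase, had 28.4, 19.1 and 28.1 CPM. Bud31, a spliceosome component, had 52.9, 4.82 and 13.2 CPM and was high in CTR replicate 1 only. Lzic, a small protein that binds beta-catenin, had 21.9, 24.7 and 24.1 CPM, the steadiest of these genes. Smpd2, a neutral sphingomyelinase, had 19.0, 25.3 and 18.4 CPM. Uxt, a prefoldin-like chaperone and transcription cofactor, had 20.8, 18.02 and 20.7 CPM. Lzic, Smpd2 and Uxt were alike in all 3 CTR libraries and at least 49.4-fold lower with VPA.

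Promoters from RefSeq (GRCm38, 250 bases before to 50 after the start) were found for 55 of the 71 members. Those of 5 members are shown as examples from endothelium, liver metabolism, the cell cycle (Aspm and Ube2c) and RNA processing. They were chosen after their values were seen. Capitals mark letters that match a motif on either strand, and matches of different motifs may overlap. The TATA box was searched as TATAAA and the GC box as GGGCGG. The box named CCAAT was searched by those letters. The CHR element of cell cycle genes was searched as TTTGAA and the E2F site as TTTNNCGC. A match is a description of letters, not of a bound factor.
Tek promoter, chr4:94739039-94739338, plus strand: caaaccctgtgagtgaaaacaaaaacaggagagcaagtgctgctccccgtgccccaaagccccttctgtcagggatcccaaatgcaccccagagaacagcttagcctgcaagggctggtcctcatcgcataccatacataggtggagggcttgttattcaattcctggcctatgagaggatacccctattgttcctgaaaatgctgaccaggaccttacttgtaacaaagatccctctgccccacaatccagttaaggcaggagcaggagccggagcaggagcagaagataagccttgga
Cyp2a5 promoter, chr7:26835089-26835388, plus strand: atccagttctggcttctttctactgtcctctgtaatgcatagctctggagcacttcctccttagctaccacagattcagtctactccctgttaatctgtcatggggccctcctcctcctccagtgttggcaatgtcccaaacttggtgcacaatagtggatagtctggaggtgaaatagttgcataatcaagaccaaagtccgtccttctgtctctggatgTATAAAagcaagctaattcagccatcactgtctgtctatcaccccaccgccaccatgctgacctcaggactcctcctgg
Aspm promoter, chr1:139454523-139454822, plus strand: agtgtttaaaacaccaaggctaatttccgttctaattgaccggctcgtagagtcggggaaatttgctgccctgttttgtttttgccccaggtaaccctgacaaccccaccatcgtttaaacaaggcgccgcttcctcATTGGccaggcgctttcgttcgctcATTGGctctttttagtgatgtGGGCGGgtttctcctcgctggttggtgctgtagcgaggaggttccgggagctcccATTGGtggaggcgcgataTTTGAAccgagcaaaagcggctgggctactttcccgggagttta
Ube2c promoter, chr2:164769679-164769978, plus strand: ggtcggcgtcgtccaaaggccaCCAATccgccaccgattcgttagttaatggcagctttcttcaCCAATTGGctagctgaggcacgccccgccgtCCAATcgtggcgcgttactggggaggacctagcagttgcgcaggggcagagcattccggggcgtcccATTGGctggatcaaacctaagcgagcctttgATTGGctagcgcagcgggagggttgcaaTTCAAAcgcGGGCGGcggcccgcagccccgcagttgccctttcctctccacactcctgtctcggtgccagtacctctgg
Bud31 promoter, chr5:145140126-145140425, plus strand: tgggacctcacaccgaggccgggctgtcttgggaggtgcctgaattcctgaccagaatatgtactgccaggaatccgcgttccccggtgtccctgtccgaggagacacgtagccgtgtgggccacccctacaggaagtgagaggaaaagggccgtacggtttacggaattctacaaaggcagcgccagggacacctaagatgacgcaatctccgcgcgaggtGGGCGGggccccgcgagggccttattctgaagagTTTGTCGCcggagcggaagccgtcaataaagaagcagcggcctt

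The window of Tek, the endothelial receptor, holds none of the 5 motifs, and that of Cyp2a5, a liver enzyme, holds a TATA box close to its start. The windows of Aspm and Ube2c, both genes of dividing cells, hold CCAAT boxes, a GC box and a CHR element. Among the 55 members, the TATA box was found in 7.27%, against 6.97% of 7144 other genes that met the CTR criteria and 13.6% of all 32851 promoters in the table. The GC box was found in 52.7%, 67.5% and 35.7% of the same groups. The CCAAT box was found in 41.8%, 38.0% and 37.4%, the CHR element in 18.2%, 10.8% and 17.9%, and the E2F site in 12.7%, 9.07% and 5.17%. The ratio of observed to expected CpG had a median of 0.606 in the members and 0.797 in the other genes, and it was above 0.6 in 50.9% and 77.1% of them. By CTR level, the share above 0.6 was 51.6% against 65.5% at 5 to 10 CPM, 43.8% against 74.01% at 10 to 20 CPM, and 62.5% of 8 members against 80.3% at 20 CPM or more. These motif and CpG shares were not tested.

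Sorted by known role after the members were seen, 9 genes act in the cell cycle or DNA repair. The share of such genes among all genes that met the CTR criteria was not counted. Genes ranked below 40 by CTR level are named here for their role and were likewise chosen after their values were seen. Lin37, a subunit of the DREAM complex that represses cell cycle genes, had 11.7 ± 4.23 CPM (SD, n = 3) in CTR. Mad2l1bp, which silences the spindle checkpoint, had 10.8 ± 8.22 CPM and was highest in CTR replicate 2. Mcm4, a subunit of the helicase that opens DNA for replication, had 10.6, 15.1 and 6.31 CPM in CTR replicates 1 to 3. Aspm, a spindle pole protein, had 8.36 ± 3.65 CPM, and Ube2c, which charges the anaphase-promoting complex with ubiquitin, had 7.63 ± 3.07 CPM. Mcm10, a replication initiation factor, Usp28, a deubiquitinase of the DNA damage response, and Arhgap11a, a gene of dividing cells, had 6.56 to 7.55 CPM. None of the 9 genes had a mean above 11.7 CPM, so all were low in the control slices too.

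The other minichromosome maintenance (Mcm) genes were not members. Those named were chosen after their values were seen, and their levels with VPA ran from 0 to above 100 CPM. Mcm3 had 60.9, 56.6 and 55.1 CPM in CTR replicates 1 to 3 and 19.1, 7.74, 15.7 and 33.0 CPM in VPA replicates 1 to 4, with no overlap of the groups (edgeR's quasi-likelihood test, log2 fold change −1.53 ± 0.48 (SE), adjusted p = 0.448). Mcm5 had 15.7 ± 3.10 CPM in CTR (SD, n = 3) and 0, 1.93, 4.997 and 6.88 CPM with VPA. Mcm6 had 9.01 ± 2.04 CPM in CTR and was at 0 in 2 VPA libraries. Mcm2 had 22.6 ± 8.69 CPM in CTR and 19.4 ± 8.54 CPM (SD, n = 4) with VPA, and Mcm7 had 132 ± 19.2 and 103 ± 20.2 CPM. None of these Mcm genes passed the adjusted threshold in edgeR or DESeq2. Of the 7 tested Mcm genes and namesakes that were no members, 6 were lower and 1 was higher, with a median log2 fold change of −1.53.

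**Figure D4:**
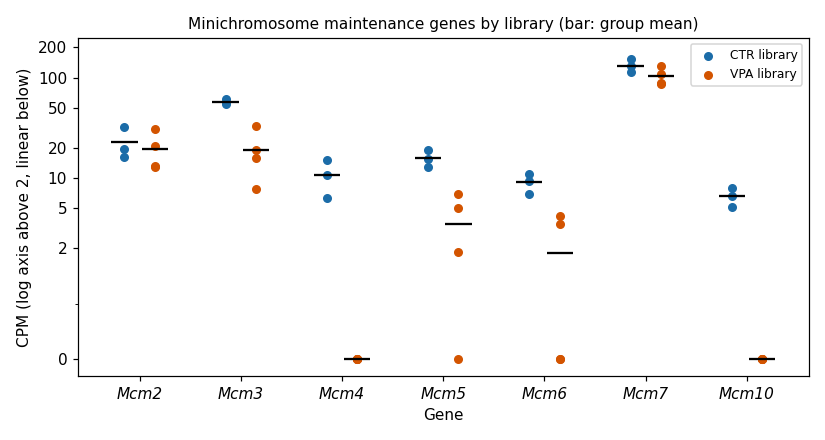
CPM of 7 minichromosome maintenance genes in each CTR (blue) and VPA (orange) library, with group means as black bars, on an axis that is logarithmic above 2 CPM and linear below. The members Mcm4 and Mcm10 are at 0 in all 4 VPA libraries, while Mcm2 and Mcm7 overlap between the groups.

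The list of 16 proliferation genes held no member. Of the 11 that could be tested, 8 were lower and 3 higher with VPA, none passed the adjusted threshold in edgeR, 3 were lower at an unadjusted p under 0.05, and the median log2 fold change was −1.53 against −0.06 over all 10876 genes tested. Over all 10876 genes, 0.00919% were called higher and 0.0% lower at the adjusted threshold, and with the unadjusted p these shares were 3.65% and 4.62%. The list summed to 243 to 298 CPM in the CTR libraries and 94.3 to 155 CPM in the VPA libraries. DESeq2, run as an alternative, called 0.754% of the 15261 genes with an adjusted p lower and 0.256% higher. Of the 12 proliferation genes among them, it called 1, Top2a, lower and none higher. Mki67, a marker of cycling cells chosen after its values were seen, had 21.9, 15.1 and 29.2 CPM in CTR and was at 0 in VPA replicates 2 to 4. Pcna, the sliding clamp of replication, had 27.7, 31.003 and 25.2 CPM in CTR and 36.9, 44.8, 23.6 and 22.7 CPM with VPA, so that the groups overlapped.

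Of the members, 4 are known from endothelium, as many as were sorted to RNA, to cilium and germ cell, to immune and to matrix roles. Bcl6b is given above with the highest members. Tek, the angiopoietin receptor Tie2, had 12.03, 16.97 and 17.2 CPM in CTR replicates 1 to 3. Thsd1, a membrane protein of endothelium, had 8.04 ± 2.05 CPM (SD, n = 3), and Selp, the adhesion molecule P-selectin of endothelium and platelets, had 5.85 ± 3.19 CPM. Of 11 listed liver endothelium markers other than Tek, 9 were at 0 in at least 1 of the 4 VPA libraries and 2 in at least 1 of the 3 CTR libraries. Of the 8 that met the CTR criteria, 6 were at 0 in at least 1 VPA library, namely all 4 with 5 to 20 CPM in CTR and 2 of the 4 with 40 to 80 CPM. Among all genes that met these criteria, that share was 54.6% at 5 to 10 CPM, 36.5% at 10 to 20 CPM and 10.7% at 40 to 80 CPM. Only Cdh5 of the 6 markers was at 0 in VPA replicate 2, and none of them was in VPA replicate 4. All other zeros of the 6 lay in VPA replicates 1 and 3. The 11 markers summed to 276 to 299 CPM in CTR and 69.9 to 289 CPM with VPA. Kdr, the main receptor for vascular endothelial growth factor, had 63.4, 80.0 and 84.3 CPM in CTR and 30.3, 145, 22.1 and 45.4 CPM with VPA, so that VPA replicate 2 lay above all CTR libraries. Cdh5, the junction protein VE-cadherin, had 74.02, 69.3 and 79.7 CPM in CTR and 0, 0, 26.4 and 24.1 CPM with VPA. Pecam1 overlapped between the groups. Of 8 tested markers other than Tek, 6 were lower and 2 higher, with a median log2 fold change of −0.52, and none passed the adjusted threshold in edgeR or DESeq2, or an unadjusted p under 0.05 in edgeR. The part of a change in endothelial content in the members was not tested.

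Of the stroma, Sulf1, which trims heparan sulfate outside the cell, had 10.1 ± 3.29 CPM (SD, n = 3) in CTR, Scara5, a ferritin receptor of stromal cells, had 9.55 ± 2.46 CPM, and Mmp9, gelatinase B, had 8.32 ± 2.40 CPM. No gene on the list of 15 activated HSC markers was a member. Of its 14 tested genes, 13 were lower and 1 higher, with a median log2 fold change of −0.99. In edgeR none passed the adjusted threshold and 7 were lower at an unadjusted p under 0.05, while DESeq2 called 5 of 15 lower (Col1a2, Col1a1, Sparc, Tnc and Vim) and 0 higher, against 115 lower and 39 higher of 15261 over all genes. Sparc, a matrix protein of activated HSCs, had 1611 CPM in CTR and 747 CPM with VPA. Of the 15 markers, 1 was at 0 in a VPA library and none was at 0 in all 4. Mmp14, a membrane-bound matrix metalloproteinase related to Mmp9, had 256 ± 27.0 CPM in CTR (SD, n = 3) and 118 ± 15.3 CPM (SD, n = 4) with VPA (edgeR, log2 fold change −1.06, adjusted p = 0.142). DESeq2 called Mmp14 lower, and it was chosen after its values were seen.

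Hepatocyte and metabolic functions were held by 6 members. Cyp2a5, the hepatic coumarin hydroxylase, had 19.3, 9.01 and 14.9 CPM in CTR replicates 1 to 3. Rdh7, a retinol dehydrogenase of liver, had 3.65, 20.3 and 14.9 CPM, and Enho, which encodes the secreted peptide adropin, had 8.32 ± 3.76 CPM (SD, n = 3). Cyp2a5 has a near-identical neighbour, Cyp2a4, with which the counting could split its reads, so its value is uncertain. Cyp2a4 had 3 counts in CTR replicate 1 and none elsewhere. Cyp2a12, a more distant relative, had 0, 84 and 31 counts in CTR replicates 1 to 3 and 26, 0, 0 and 10 counts in VPA replicates 1 to 4. The retinol dehydrogenases Rdh16 and Rdh1 had at most 7 counts in any library. These relatives were chosen after their values were seen. The listed hepatocyte markers did not follow the members, with 3 of 12 tested genes lower and 9 higher, none past the adjusted threshold in edgeR or DESeq2, and a median log2 fold change of 0.35. The list summed to 7868 to 19915 CPM in CTR and 5013 to 14618 CPM with VPA. Albumin (Alb) had 765, 1735 and 2276 CPM in CTR and 5119, 1626, 1698 and 716 CPM with VPA. The groups overlapped, and the VPA mean of 2290 CPM, above the CTR mean of 1592 CPM, fell to 1347 CPM without VPA replicate 1.

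Chromatin and transcription held 8 members. Suv39h1, the methyltransferase that marks heterochromatin on histone H3, had 17.9, 10.1 and 17.2 CPM in CTR. Maml1, the Notch coactivator, had 5.95 ± 1.48 CPM (SD, n = 3). Rhox5, a homeobox factor of the reproductive tract, had 6.60 ± 3.11 CPM. Of 13 tested genes on the list of known responses to histone deacetylase inhibition, 7 were higher and 6 lower, 2 were higher at an unadjusted p under 0.05, and none passed the adjusted threshold in edgeR or DESeq2.

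RNA processing was represented by Bud31, Spag7, Toe1 and Srsf4. Toe1, a deadenylase that matures small nuclear RNAs, had 13.2 ± 1.62 CPM (SD, n = 3). Srsf4, a splicing factor, had 1.46, 5.66 and 10.3 CPM in CTR replicates 1 to 3. All 9 other tested Srsf genes were lower with VPA, 3 of them at an unadjusted p under 0.05 and none past the adjusted threshold in edgeR, with a median log2 fold change of −0.30. Over all 10876 genes tested in edgeR, 54.2% were lower, and 4.62% were lower at an unadjusted p under 0.05. The stem of Spag7 went the other way, with all 4 other tested genes higher, 2 of them at an unadjusted p under 0.05. Srsf7 had 58.9 ± 9.11 CPM in CTR and 23.4 ± 6.35 CPM with VPA (edgeR, log2 fold change −1.27, adjusted p = 0.193), and DESeq2 called it lower. Srsf2 was at 0 in 2 VPA libraries. These 2 genes and the 2 stems were chosen after their values were seen.

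The largest role group, signalling and trafficking, held 11 members between 5.10 and 13.9 CPM. Dennd4c, an exchange factor for the small GTPase Rab10, had 13.9 ± 2.83 CPM (SD, n = 3), and Map3k11, a kinase upstream of JNK, had 13.7 ± 4.87 CPM. Rin1, a Ras effector, had 9.71 ± 2.46 CPM and Strada, a partner of the kinase LKB1, had 9.22 ± 6.10 CPM. Map3k12, a related kinase, had 4.55 ± 2.27 CPM in CTR and 7.26, 84.8, 79.2 and 4.13 CPM with VPA, and it was chosen after its values were seen. Fhod1, an actin-bundling formin, Tnnc1, the slow and cardiac troponin C, and Sntb1, a syntrophin of the dystrophin complex, had 13.3 ± 1.47, 9.51 ± 5.33 and 9.16 ± 7.69 CPM. The mitochondrial members Top1mt, Immp1l and Coq6 had 11.2 to 11.8 CPM. Of the immune members, Klhl6, a ubiquitin ligase adaptor of B lymphocytes, had 11.3, 25.3 and 16.6 CPM, and Il18, a cytokine, had 7.31 ± 1.77 CPM. The list of 12 lymphocyte markers summed to 14.2 to 23.9 CPM in CTR and 7.41 to 33.7 CPM with VPA, and the macrophage list to 401 to 548 and 337 to 578 CPM.

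Grouped by shared symbol stems, 33 families held a member, and 330 of their other genes could be tested. Of these, 178 were lower and 152 higher, in edgeR none passed the adjusted threshold, 14 were lower and 20 higher at an unadjusted p under 0.05, and the median log2 fold change was −0.05. DESeq2 called 4 of 329 lower (Bcl7c, Top2a, Mmp14 and Srsf7) and 0 higher, against 115 lower and 39 higher of 15261 over all genes. Among all 10876 genes tested, 54.2% were lower. A shared stem does not make genes relatives, and stems such as Map and Bcl join unlike genes. Of the members themselves, 32 passed edgeR's filter on low counts and 39 did not.

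The members spanned 1565 bases (Ly6d) to 385918 bases (Cep128, a centriolar protein), with a median of 20296 against 26751 for the other genes that met the CTR criteria. The direction changed with the CTR level. At 5 to 10 CPM the median span was 33345 bases in members and 26884 in the others, at 10 to 20 CPM it was 16458 and 27303, and at 20 CPM or more it was 11440 and 26524. The exons of members covered a median of 4112 bases against 4951, and less than those of the others in each of these ranges. The median number of exons was 9 against 10. The last 300 bases of the transcript had a median GC content of 41.0% against 41.3%, which was 39.7% against 40.3% at 5 to 10 CPM, 42.0% against 41.3% at 10 to 20 CPM, and 47.0% against 41.3% at 20 CPM or more, where 11 members lay. A polyadenylation signal lay in the last 50 bases of 83.1% against 80.0%. Members lay on 18 chromosomes, with 1 to 7 on each.

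Another gene with at least 10 counts overlapped 26 members (36.6%, 95% exact Clopper-Pearson interval 25.5% to 48.9%), against 30.9% of the other genes. Within the last 1000 bases of the gene, where reads of 3′ libraries fall, an overlap was found for 25.4% of members and 12.1% of the others. In the 3 ranges of CTR level the shares were 25%, 25% and 27.3% of members and 12.8%, 12.6% and 11.9% of the others. The share was 11.5%, 12.9%, 15.3%, 20.1% and 25.4% for genes at 0 in 0, 1, 2, 3 and 4 VPA libraries. Exons were shared with another gene by 30.99% of members and 20.4% of the others, a measure added after the data were seen. Overlap on the same strand was found for 9.86% and 11.6%. These 4 measures of overlap were looked at beside lengths, exon number, base content, the polyadenylation signal, CpG and motifs, and none was tested. Whether the counting used strand is not given in the sources used here.

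**Figure D5:**
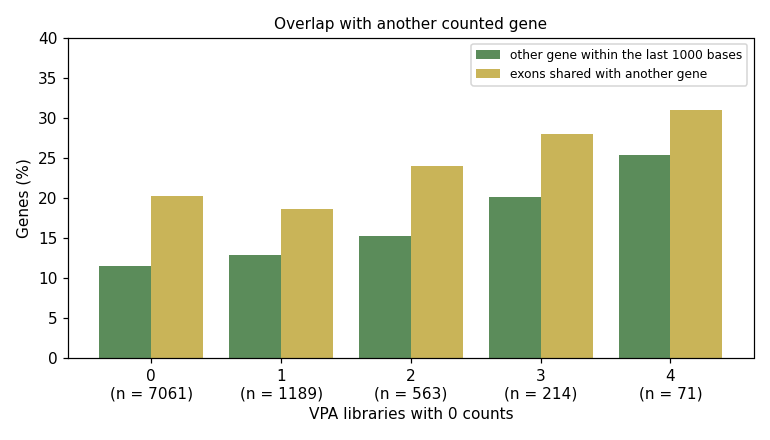
Percent of genes with another counted gene in their last 1000 bases (green) and with exons shared with another gene (yellow), by the number of VPA libraries in which the gene had 0 counts. The green bars rise from 11.5% at 0 libraries to 25.4% at 4 libraries, the members.

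The genes that overlap members changed in both directions. Of 31 such genes, 21 could be tested, and 9 of them were higher and 12 lower with VPA, none past the adjusted threshold in edgeR or DESeq2, or at an unadjusted p under 0.05 in edgeR. Their median log2 fold change was −0.04, against −0.06 over all genes tested. Whether they gained counts as a group was not tested. In 2 cases, Cenpb beside Spef1 and Bola2 beside Coro1a, the mean CPM gained was at least what the member had in CTR, and both were chosen after their values were seen. In a pair chosen after its values were seen, the member and its partner were high in different CTR libraries. Bud31 had 145, 23 and 23 counts in CTR replicates 1 to 3, while Ptcd1, which shares 244 exonic bases on the opposite strand, had 0, 648 and 95. Ptcd1 had 0, 314, 81 and 128 counts in the VPA libraries. Ptcd1 was thus at 0 in the CTR library where Bud31 was highest. Where strand use is unknown, Bud31 and the other members with shared exons are uncertain. Smpd2 shares 905 bases with Mical1 and Toe1 shares 1212 bases with Tesk2. Mical1 had a mean of 0.574 CPM in CTR and 2.97 CPM with VPA, where all its counts were in VPA replicate 1. Tesk2 had a mean of 2.56 CPM in CTR and 7.07 CPM with VPA.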

How the data were processed

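Total RNA of PCLS was made into QuantSeq 3′ libraries, and per the labels and the study's methods the reads were mapped to GRCm38 (mm10) with STAR and assembled with StringTie. The authors deposited raw, unnormalized counts for each Ensembl gene in every library. The counting program, its strand setting and how it treated multi-mapping reads are not given in the sources used here. Symbols, biotypes and coordinates were taken from the GENCODE annotation of GRCm38, which named 55227 genes and left 260 unnamed. Groups came from the sample titles. CPM used the counts on all genes. Whole-table tests used edgeR 4.0.16 in R 4.3.3 (TMM, filterByExpr, robust quasi-likelihood, 10876 genes, Benjamini-Hochberg, threshold 0.05), with DESeq2 1.42.0 as an alternative. Single library values were compared by an exact permutation test over 35 splits. Code was tested on simulated data.

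The members and gene lists were chosen with earlier results of these data known, and member roles were written from general knowledge after the members were seen. The named genes are members up to 40 by CTR level, the 3 nearest the threshold on each side, values in every library for the highest 12, overlapping genes (at most 2 a member), and up to 3 genes a list (largest mean). Single CTR values of some members below the highest 12 are also printed, beyond this rule. Genes outside this rule are given as chosen after their values were seen. The values of 1 member are not reported here. Alternatives were other CPM denominators, thresholds, biotypes, filters, normalizations, blocks, and each library left out.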

Additional observations from a re-analysis of the deposited data

Results flagged for a closer look

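VPA replicate 2 stood apart in depth. It held 3102450 counts on genes, against 1400887 to 1515954 in the other VPA libraries. Its gap to the nearest library, as a share of the group's range, was above Dixon's 95% critical value, which chance passes in about 1 in 20 groups. The rule that chose the members required 0 counts in this library, and without it 130 genes met the rule.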

How the results depend on the processing

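With CPM over protein-coding counts 94 genes were members, with TMM library sizes 68, with all biotypes 77 and with up to 3 VPA counts 87, and 68 to 71 of the members were among them. At a mean CTR level of at least 10 CPM there were 31, at 2 CPM 134, and with the groups exchanged 1. Leaving out each library in turn gave 89 to 142 genes. There were 110 without CTR replicate 1 and 121 without CTR replicate 3. Without VPA replicates 2, 3 and 4 there were 130, 126 and 142. Each of these is more than 1.5 times the 71. Fewer libraries then had to meet the rule, and without a CTR library the mean CTR CPM changed as well. Without VPA replicate 1 there were 100. Of the 71 members, 68, 66 and 67 met the rule without CTR replicates 1, 2 and 3, while leaving out a VPA library only removes a condition and keeps all of them.

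edgeR called 1 gene higher with VPA and 0 lower, and 397 and 503 had an unadjusted p under 0.05. DESeq2 called 154 (39 higher, 115 lower), edgeR without the filter 10, and edgeR without 1 library 0 to 2. With a replicate block, by slice culture or by replicate number, 0 genes were called. Correlations of the deviations of same-numbered libraries were 0.0256 to 0.107 by slice culture and −0.0539 to 0.107 by replicate number. The libraries were not treated as paired. No correlation of unmatched libraries was computed beside these, so they cannot decide whether the libraries are paired. The overlap of members was 9.86% on the same strand and 25.4% in the last 1000 bases. With at least 10 counts predicted, the mean share of genes at 0 in CTR libraries was 3.24% against 2.16%. Most members rested on few counts, with the lowest CTR count at 3, and 7.14 counts corresponded to the lowest CTR level in the shallowest VPA library.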

Other observations

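Fewer genes were detected in the VPA than in the CTR libraries, and the p of an exact permutation test depended on its definition. It was 0.0286, the smallest that 35 splits allow, for the size of the difference of means, and 0.0571 as the doubled one-sided value. The first definition was taken up after the second had been seen. For the share of genes at 0 with at least 20 counts predicted, the exact permutation p-values were 0.2 and 0.114. No call is drawn from either measure.

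Of cell types outside the members, the 8 listed mesothelium genes summed to 1.72 to 23.3 CPM in CTR and 1.43 to 22.2 CPM with VPA, and 5 of them were at 0 in all VPA libraries against 2 in all CTR libraries. Of those 5, Upk3b, Upk1b and Lrrn4 had counts only in CTR replicate 2, the deepest library, at 1.05, 2.72 and 7.54 CPM. Msln had at most 2.51 CPM in a CTR library, and Muc16 was at 0 in all 7 libraries. Wt1 and Krt19 had their highest values, 19.8 and 14.8 CPM, in VPA libraries. These genes were chosen after their values were seen. The quiescent HSC list summed to 715 to 1570 CPM in CTR and 829 to 2130 CPM with VPA. Its sum was mostly Dcn, with a mean of 843 CPM in CTR and 1149 CPM with VPA. Of its 12 tested genes, 8 were lower and 4 higher (median log2 fold change −0.26, none called in edgeR or DESeq2). The cholangiocyte list summed to 466 to 755 CPM in CTR and 279 to 700 CPM with VPA, with Cldn4 called lower in DESeq2 but not in edgeR. Of 10 tested basement membrane genes, 9 were lower, none past edgeR's adjusted threshold (DESeq2 called Col4a1 lower), with a median log2 fold change of −0.53. Of 9 tested chromatin assembly genes 6 were lower (median −0.08, none called in edgeR, Nap1l1 called lower in DESeq2), and of 5 tested tubulin cofactors 4 were lower (median −0.41, none called in either tool).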
